A study of Gallus gallus with 2 samples.

Results

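The cells described here were surface ectoderm cells of the chicken (Gallus gallus) posterior end that held molecules of either EN1 or WNT7A but not of the other. EN1 encodes the homeodomain transcription factor engrailed 1 and WNT7A a secreted WNT ligand. A cell was kept with at least 4000 gene molecules, of which at most 20% came from 13 mitochondrial protein-coding genes. It was called surface ectoderm with at least 0.5 molecules per 10000 gene molecules of TP63, the transcription factor of stratifying epithelia, and of EPCAM, an epithelial adhesion molecule, and under 1 per 10000 of FOXA1, a factor of the endoderm and floor plate. EN1-positive cells had EN1 at 0.5 per 10000 or more and no WNT7A molecule. WNT7A-positive cells had WNT7A at 0.5 per 10000 or more and no EN1 molecule. Of 60000 cell indices in the table, 12336 passed the depth and mitochondrial limits, 1519 of these were ectoderm, and 332 were EN1-positive and 312 WNT7A-positive, 644 cells together.

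In the ectoderm of the limb bud, WNT7A is made dorsally and induces the LIM-homeodomain factor LMX1B in the mesenchyme beneath, which gives that mesenchyme its dorsal character. EN1 is made ventrally, downstream of BMP signalling, and keeps WNT7A out of the ventral side. The apical ectodermal ridge, a signalling epithelium that secretes FGFs, forms near the border between these territories. The cells here were dissociated, so their position in the embryo was not recorded, and they are named by the genes that chose them.

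The tissue came from wild-type embryos after 72 h of incubation, at 35 somites, per the labels, and the cells of control embryos and of embryos given homocysteine, 20 uL of either a 19 mM high dose or a 0.5 mM low dose, were mixed. Dissociated tissues were marked with lipid-anchored DNA barcodes, pooled and captured together on the BD Rhapsody microwell system. The labels tie no barcode to a treatment, so which treatments and embryos make up the EN1-positive and WNT7A-positive groups is not known. No treatment was compared. All values come from 1 expression library and 1 pooled sample, so there was no replicate and no test, and intervals, all at 95%, cover counting error only.

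Both groups were sequenced to a like depth. EN1-positive cells had a median of 26646 gene molecules (4131 to 115692) and WNT7A-positive cells 28763 (4395 to 115658). The median mitochondrial share was 13.1% in EN1-positive and 13.04% in WNT7A-positive cells, and the groups summed to 10913491 and 10729531 gene molecules in that order. Surface ectoderm genes that the rule did not use were present in both. CDH1, which encodes E-cadherin, stood at 276 molecules per 1000000 gene molecules of the group (CPM) in EN1-positive cells and 173 in WNT7A-positive cells, against 19.3 in cells outside the ectoderm. TFAP2A, an early ectodermal transcription factor, stood at 479 and 521 CPM in those groups, against 44.2 outside. WNT6, an ectodermal WNT ligand picked after its values were seen, stood at 140 and 147, against 2.16 outside.

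The cells were chosen by their EN1 and WNT7A values, which are given as a description. EN1 (chromosome 7, 28136121 to 28139219 in GRCg7b) ranged over EN1-positive cells from 0.520 to 35.4 molecules per 10000, with a median of 7.37. WNT7A (chromosome 12, 6213260 to 6249706) ranged over WNT7A-positive cells from 0.502 to 20.0 per 10000, with a median of 2.70. The nearest cells left out had 0.489 per 10000 of EN1 and 0.496 of WNT7A. A single EN1 molecule admitted 30 EN1-positive cells (9.04%), and a single WNT7A molecule 23 WNT7A-positive cells (7.37%), while 218 (65.7%) and 139 (44.6%) of the cells of those groups held 10 or more. Outside the ectoderm the threshold was met by 3.48% of cells for EN1 and 1.04% for WNT7A. In 179 cells rich in haemoglobin RNA (median 21878 molecules), which should lack both genes, it was met by 1 cell (0.559%) for each. The classes also depend on any molecule of the other gene, below the threshold too. At least 1 molecule of EN1 was seen in 10 of the 179 (5.59%) and of WNT7A in 2 (1.12%). Outside the ectoderm these shares were 19.0% for EN1 and 3.49% for WNT7A.

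A further 115 ectoderm cells (7.57%) held molecules of both genes, 586 (38.6%) of neither, and 100 and 74 had EN1 or WNT7A alone below the threshold. The cells with both were deeper, with a median of 50842 molecules against 23783 in cells with neither, and deeper cells detect a low gene more often. Their levels were 149 CPM for EN1 and 161 CPM for WNT7A, below the 926 CPM of EN1 in EN1-positive cells and the 400 CPM of WNT7A in WNT7A-positive cells. The part of depth, of stray RNA from other cells, or of 2 cells sharing 1 well, in these 115 cells was not tested. The plot of EN1 against WNT7A shows how the classes lie.

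**Figure D1:**
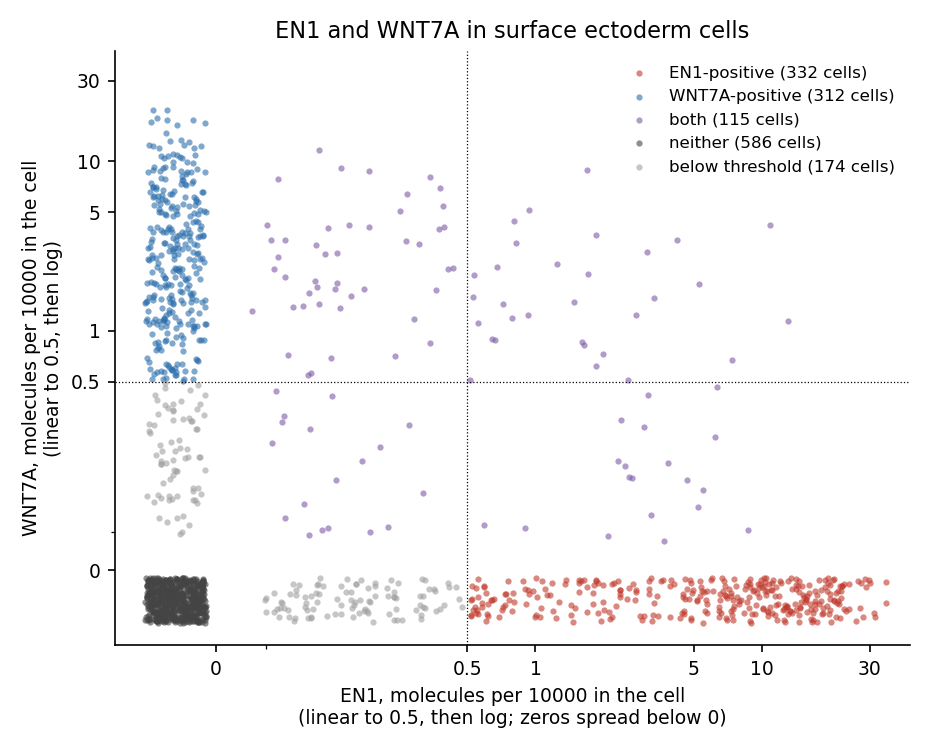
EN1 (x axis) and WNT7A (y axis) in each of 1519 surface ectoderm cells, as molecules per 10000 gene molecules, on axes that are linear to 0.5 and logarithmic above it. Each point is a cell, dotted lines mark the threshold of 0.5, and cells at 0 are spread below 0 for visibility. Most cells lie along an axis, with 115 cells between them.

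Both groups were found in each lipid barcode, which marks cells of 1 dissociated tissue. With SBC2, EN1-positive cells were 30 of 130 ectoderm cells (23.1%, interval 16.1 to 31.3%) and WNT7A-positive cells 30 (23.1%). With SBC3 they were 124 and 119 of 513 (24.2% and 23.2%), with SBC7 49 and 54 of 182 (26.9% and 29.7%), and without an assigned barcode 129 and 109 of 694 (18.6% and 15.7%). With each of the 3 barcodes, the share of either group lay within the counting interval of the other. Without an assigned barcode, the WNT7A-positive share lay just below the EN1-positive interval of 15.76 to 21.7%. The cells without an assigned barcode were shallower (median 24284 molecules) than those with SBC2, SBC3 or SBC7 (29754, 32050 and 45287). They are called cells with no barcode below, but may hold few molecules of these barcodes, like amounts of several, or a barcode that was not used.

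The question put to the other genes was which were higher or lower in EN1-positive than in WNT7A-positive cells. Molecules were summed over the cells of each group and divided by the group's total, and a gene was counted as past 2-fold with a ratio of at least 2 either way and at least 100 molecules in the higher group. Of 9192 genes that reached 100 molecules, 438 (4.77%) were past 2-fold, 250 higher in EN1-positive cells (2.72%) and 188 lower (2.05%). The ratio was 4-fold or more for 78 higher and 56 lower genes, and 10-fold or more for 14 and 15. The median log2 ratio of all 9192 was -0.0037. In each of the 3 barcodes taken alone, 222 of the 250 were higher and 182 of the 188 were lower, and 133 and 115 were past 2-fold in all 3. These genes were chosen by the pooled ratio of the same cells, so their agreement over barcodes is not independent of the choice. The share of all genes with such agreement was not counted. The scatter of all genes shows both arms.

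**Figure D2:**
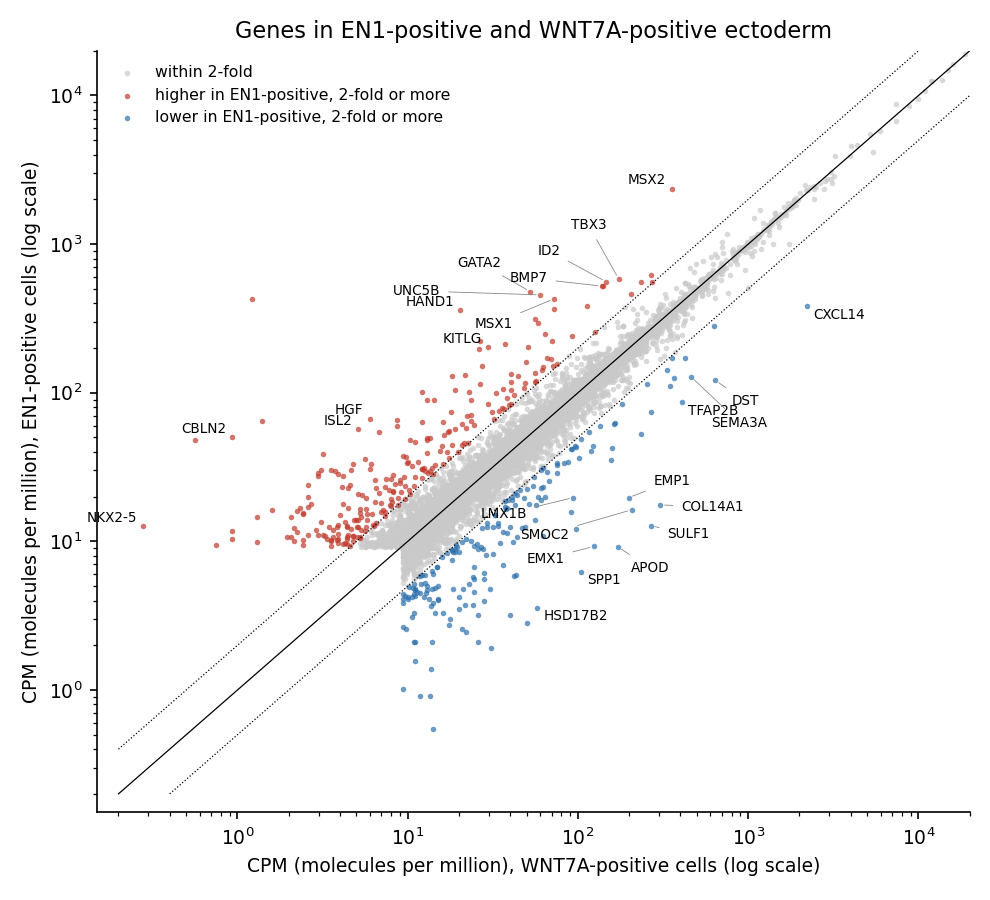
CPM in EN1-positive cells (y axis) and WNT7A-positive cells (x axis), both logarithmic, for genes with at least 100 molecules in the higher group, EN1 and WNT7A left out. The solid line marks equal levels and dotted lines 2-fold. MSX2 at 2361 against 355 CPM and CXCL14 at 382 against 2202 CPM are the most abundant genes named in each arm, and the red point at 426 against 1.21 CPM is a gene with an identifier only.

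The genes higher in EN1-positive cells included several transcription factors. HAND1 (chromosome 13, 11737292 to 11738824), a basic helix-loop-helix factor known from heart, lateral mesoderm and extraembryonic tissue, had 362 CPM in EN1-positive cells and 20.3 in WNT7A-positive cells, 17.8-fold higher (15.5 to 20.5). In SBC2, SBC3, SBC7 and cells with no barcode it had 511, 396, 357 and 292 CPM in EN1-positive cells, against 27.4, 18.4, 23.9 and 18.1 in WNT7A-positive cells. Each EN1-positive value was thus above every WNT7A-positive value. After each cell was thinned to 4000 molecules, HAND1 was seen in 66.0% of EN1-positive cells, 6.09% of WNT7A-positive cells and 1.12% of haemoglobin-rich cells. Without thinning it was seen in 88.9% of EN1-positive and 29.5% of WNT7A-positive cells.

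GATA2 (chromosome 12, 9378895 to 9396382), a zinc-finger factor of surface ectoderm and blood progenitors, had 479 CPM in EN1-positive cells and 52.5 in WNT7A-positive cells, 9.14-fold higher (8.37 to 9.98). By barcode it had 707, 472, 474 and 436 CPM in EN1-positive cells, against 29.2, 56.2, 43.6 and 61.6 in WNT7A-positive cells, in the order used for HAND1. The highest EN1-positive and the lowest WNT7A-positive value of GATA2 were both in SBC2. It was seen in 69.6% of EN1-positive and 16.7% of WNT7A-positive thinned cells, and in 71.5% of haemoglobin-rich cells. Those cells are thus no low background for GATA2. Within EN1-positive cells thinned to 4000 molecules, GATA2 was seen in 80.4% of the cells with HAND1 and 48.7% of those without. ISL2, a LIM-homeodomain factor of motor neurons, had 57.1 CPM in EN1-positive and 5.13 in WNT7A-positive cells, and NKX2-5, the cardiac homeodomain factor, 12.7 and 0.28 CPM in EN1-positive and WNT7A-positive cells. The values of NKX2-5 rest on 139 molecules in EN1-positive and 3 in WNT7A-positive cells.

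MSX2 (chromosome 13, 9409592 to 9415374), a homeodomain factor induced by BMPs and made in the apical ridge, was the most abundant gene named on this side. It had 2361 CPM in EN1-positive cells and 355 in WNT7A-positive cells, 6.64-fold higher (6.42 to 6.87). By barcode, MSX2 ran from 2042 to 3154 CPM in EN1-positive cells and from 316 to 386 in WNT7A-positive cells. It was seen in 96.1% of thinned EN1-positive and 52.2% of thinned WNT7A-positive cells, and in 7.26% of haemoglobin-rich cells. MSX1, its relative, had 429 and 72.5 CPM in EN1-positive and WNT7A-positive cells. TBX3, a T-box repressor, had 584 and 173 CPM in EN1-positive and WNT7A-positive cells, and by barcode 546 to 782 in EN1-positive cells against 150 to 195 in WNT7A-positive cells. TBX2, its paralogue, had 84.6 and 29.7 CPM in EN1-positive and WNT7A-positive cells.

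Of 43 patterning transcription factors that reached 100 molecules, 7 were higher in EN1-positive cells (16.3%, against 2.72% of all genes). Another 7 were lower (16.3%, against 2.05%), and the list's median log2 ratio was -0.08. The higher ones were TBX2, TBX3, MSX1, MSX2, SOX2, ALX4 and ISL1, and the lower ones included IRX2, BARX2, EMX2, NR2F1 and NR2F2. ISL1 had 160 CPM in EN1-positive cells and 49.2 in WNT7A-positive cells, a log2 ratio of 1.70 that was 2.57 without the cells of SBC3. SOX2 was low in both groups, at 15.9 CPM in EN1-positive and 7.36 in WNT7A-positive cells, with 19.7% of its EN1-positive molecules in 1 cell, and without the cells of SBC7 its log2 ratio was 0.50.

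Of the lists of signalling pathways, that of BMP and TGF-beta held the largest share of genes higher in EN1-positive cells. BMP and TGF-beta ligands signal through receptor kinases and SMAD proteins, and the ID genes are among their direct targets. Of 24 list members at 100 molecules, 9 were higher (37.5%, against 2.72% of all genes) and 0 lower, and the median log2 ratio was 0.69. Of the ligands, BMP7 (chromosome 20, 12024248 to 12068416) had 522 CPM in EN1-positive cells and 138 in WNT7A-positive cells, 3.77-fold higher (3.56 to 4.00). By barcode BMP7 had 613, 506, 499 and 529 CPM in EN1-positive cells, against 182, 111, 118 and 176 in WNT7A-positive cells, with no overlap. GDF3 and GDF6, further ligands of this family, had 33.1 and 9.44 CPM in EN1-positive cells, against 4.75 and 0.75 in WNT7A-positive cells. BMP4 and BMP2 were picked after their values were seen. BMP4 was just under 2-fold, at 279 and 142 CPM in EN1-positive and WNT7A-positive cells, and BMP2 had 111 and 64.9 CPM in the same groups.

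The targets and inhibitors on the BMP list that were past 2-fold were also higher in EN1-positive cells. ID2, an inhibitor of helix-loop-helix factors, had 559 CPM in EN1-positive cells and 146 in WNT7A-positive cells, and ID4 had 294 and 58.4 CPM in the same groups. BAMBI, a decoy receptor that dampens BMP signalling and is itself induced by it, had 366 and 72.1 CPM in EN1-positive and WNT7A-positive cells, 5.07-fold higher (4.69 to 5.48). The inhibitory SMAD6 had 257 and 125 CPM and SMAD7 77.5 and 37.0 CPM in EN1-positive and WNT7A-positive cells, and BMPER, a secreted BMP modulator, 10.7 and 2.05. ID3 did not pass 2-fold, with 687 CPM in EN1-positive cells and 452 in WNT7A-positive cells. The list of dorsoventral limb patterning shares SMAD6, SMAD7, BAMBI, ID2 and ID4 with this one. These were its 5 higher members of 16 (31.25%, against 2.72% of all genes), so this share is not a separate result. LMX1B was its 1 lower member (6.25%, against 2.05% of all genes).

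FGF genes and those of the apical ridge were also counted. Of 20 FGF ligands, receptors and feedback genes, 6 were higher in EN1-positive cells (30%, against 2.72% of all genes) and 0 lower (median log2 ratio 0.40). They were the ligands FGF7, FGF8, FGF9 and FGF18, the feedback inhibitor SPRY2 and the ETS factor ETV1. FGF8, the ridge ligand, had 66.3 CPM in EN1-positive cells and 32.2 in WNT7A-positive cells, seen in 8.73% of EN1-positive and 5.13% of WNT7A-positive thinned cells. By barcode FGF8 had 1.09, 111, 25.6 and 57.8 CPM in EN1-positive cells, against 10.95, 50.01, 24.8 and 19.4 in WNT7A-positive cells, so the groups overlapped and SBC2 had the opposite order. The receptor FGFR2 had 815 and 601 CPM in EN1-positive and WNT7A-positive cells, and DUSP6, a feedback phosphatase, 174 and 115.

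Of 24 apical ridge genes, 7 were higher (29.2%, against 2.72% of all genes) and 0 lower (median log2 ratio 0.49), namely FGF8, FGF9, MSX1, MSX2, BMP7, CD44 and LEF1. All of these but CD44 are also counted on the FGF, patterning factor, BMP or WNT list, so this share is not a separate result. CD44, a hyaluronan receptor, had 105 CPM in EN1-positive cells and 18.9 in WNT7A-positive cells. The ridge factor SP8, picked after its values were seen, had 186 and 132 CPM in EN1-positive and WNT7A-positive cells, and the ridge ligand WNT3A, picked likewise, 129 and 140. SP8 and WNT3A were thus within 2-fold between the groups.

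Among 33 WNT ligands and modulators, 6 were higher in EN1-positive cells (18.2%, against 2.72% of all genes) and 1 lower (3.03%, near the 2.05% of all genes), with a median log2 ratio of 0.03. FZD4, a WNT receptor, had 211 CPM in EN1-positive cells and 37.2 in WNT7A-positive cells. LEF1, the nuclear partner of beta-catenin, had 463 and 205 CPM in EN1-positive and WNT7A-positive cells, and RSPO3, which strengthens WNT signalling, 130 and 44.4, with a log2 ratio of 1.55 that was 2.17 without the cells of SBC3. NOTUM, an enzyme that inactivates WNT ligands, had 49.3 and 13.5 CPM in EN1-positive and WNT7A-positive cells, and WNT9B and WNT9A had 27.6 and 10.4 CPM in EN1-positive cells, against 4.19 and 4.38 in WNT7A-positive cells. LGR5, a receptor for R-spondins, was the lower member, with 9.80 and 35.0 CPM in EN1-positive and WNT7A-positive cells.

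HGF, the ligand of the MET receptor, had 67.1 CPM in EN1-positive cells and 5.96 in WNT7A-positive cells, 11.2-fold higher (8.70 to 14.8), from 18.7% of EN1-positive and 2.24% of WNT7A-positive thinned cells. WISP1, a secreted matricellular protein, had 38.6 and 3.17 CPM in EN1-positive and WNT7A-positive cells, with 36.6 to 42.3 by barcode in EN1-positive cells against 2.90 to 3.75 in WNT7A-positive cells. KITLG, the ligand of the KIT receptor, was picked after its values were seen and had 203 and 29.7 CPM in EN1-positive and WNT7A-positive cells. The netrin receptors UNC5B and UNC5C had 455 and 224 CPM in EN1-positive cells, against 60.1 and 26.7 in WNT7A-positive cells. CBLN2, a secreted synaptic organiser, had the largest ratio of the genes with a symbol, with 50.1 CPM in EN1-positive and 0.93 in WNT7A-positive cells. SBC2 cells held much of it, at 264 CPM in EN1-positive cells against 0.91 in WNT7A-positive cells, while the EN1-positive values of the other cells were 14.6 to 42.4. Without the cells of SBC2 the log2 ratio of CBLN2 was 5.03 in place of 5.75, and that of NKX2-5 was 4.82 in place of 5.51.

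On the surface ectoderm list, DLX3, DLX5, DLX6 and the keratin gene KRT18 were higher in EN1-positive cells, while the keratin genes KRT7, KRT14 and KRT24 were within 2-fold. DLX5 and DLX6, neighbouring homeobox genes on chromosome 2, had 623 and 29.6 CPM in EN1-positive cells, against 268 and 12.6 in WNT7A-positive cells. DLX3 had 169 and 69.5 CPM and KRT18, a simple-epithelium keratin, 137 and 55.6 CPM in EN1-positive and WNT7A-positive cells. Of the list's 25 genes at 100 molecules, 5 were higher (20%, against 2.72% of all genes), namely DLX3, DLX5, DLX6, KRT18 and GATA2. A further 2, TFAP2B and GATA3, were lower (8%, against 2.05%), and the median log2 ratio was 0.07. TUBB3, a beta-tubulin best known from neurons, was picked after its values were seen and had 385 and 112 CPM in EN1-positive and WNT7A-positive cells, from 74.4% of EN1-positive and 38.1% of WNT7A-positive thinned cells.

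Most posterior identity genes, like most genes, were within 2-fold. None of 21 HOX genes of paralogue groups 1 to 9 was past 2-fold (median log2 ratio -0.12). That is near the 4.77% of all genes past 2-fold either way. Of 12 genes of groups 10 to 13 and the CDX family, 1 was higher (8.33%, against 2.72% of all genes) and 0 lower. It was HOXA13, the distal limb and cloacal HOX gene, and the list's median log2 ratio was 0.35. HOXA13 had 250 CPM in EN1-positive cells and 64.2 in WNT7A-positive cells, and by barcode 476, 262, 129 and 253 in EN1-positive cells, against 50.2, 92.8, 38.9 and 46.1 in WNT7A-positive cells. The groups did not overlap. EVX1, its neighbour on chromosome 2 and picked after its values were seen, had 135 and 40.6 CPM in EN1-positive and WNT7A-positive cells. HOXA11 and HOXD13, picked likewise, had 99.1 and 18.8 CPM in EN1-positive cells, against 49.96 and 9.41 in WNT7A-positive cells, just under 2-fold. By barcode, HOXD13 had 42.3, 15.1, 5.02 and 24.9 CPM in EN1-positive cells, against 4.56, 13.2, 3.75 and 9.68 in WNT7A-positive cells, so the groups overlapped. Its log2 ratio was 1.62 without the cells of SBC3, 2.58 in cells thinned to 4000 molecules and -0.10 with at most 10% mitochondrial molecules.

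**Figure D3:**
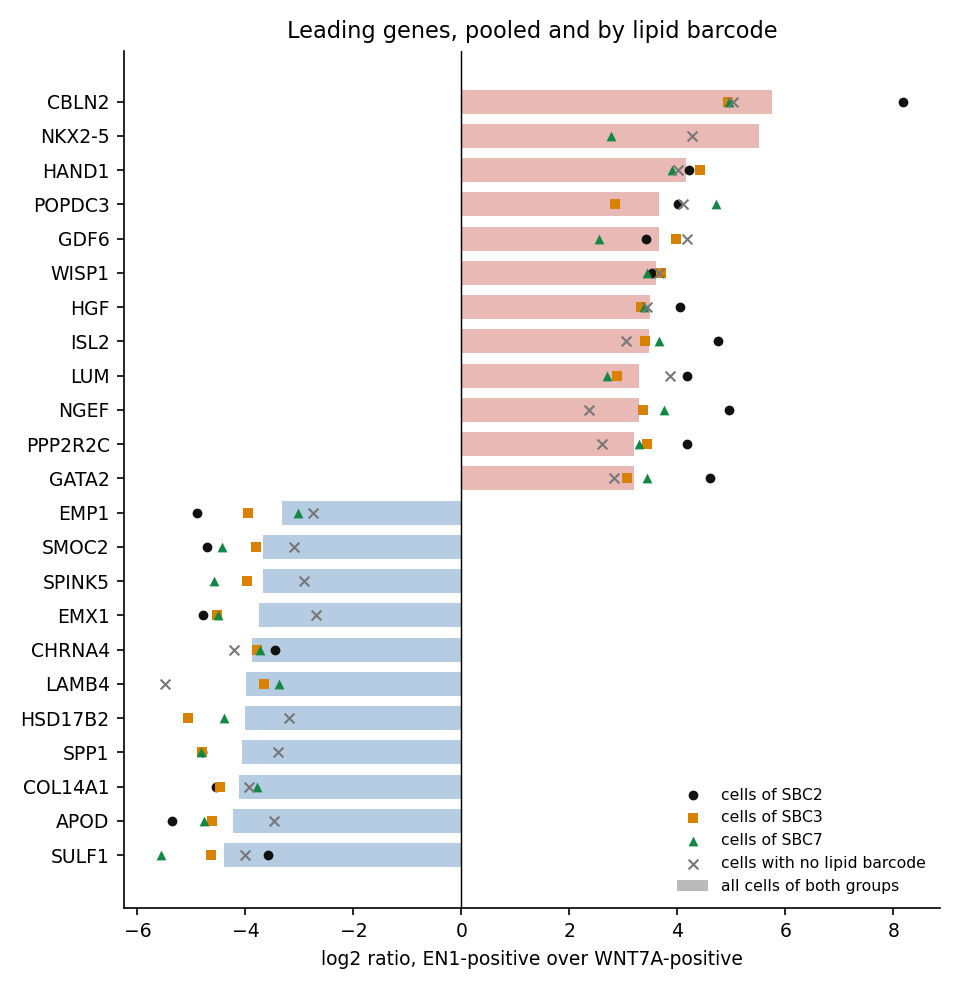
Log2 ratio of EN1-positive over WNT7A-positive cells (x axis) for named genes with the largest ratios each way. Bars give all cells of both groups, and points the cells of each lipid barcode or of none, where both groups held a molecule. HAND1 ran from 14.9-fold to 21.5-fold higher over these sets of cells, and no point of the genes shown crossed 0. The genes were chosen by the pooled ratio that the bars show.

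The genes lower in EN1-positive cells included several of the extracellular matrix. In what follows, a fold lower is the WNT7A-positive level over the EN1-positive one. SULF1 (chromosome 2, 115940817 to 116067045), a sulfatase that edits heparan sulfate at the cell surface, had 12.7 CPM in EN1-positive cells and 268 in WNT7A-positive cells, 21.0-fold lower (17.7 to 25.1). By barcode, in the order SBC2, SBC3, SBC7 and none, SULF1 had 20.6, 10.7, 5.94 and 17.0 CPM in EN1-positive cells, against 246, 265, 280 and 272 in WNT7A-positive cells. The groups were apart in every barcode, and SULF1 was seen in 4.22% of EN1-positive and 59.6% of WNT7A-positive thinned cells, against 2.23% of haemoglobin-rich cells.

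COL14A1 (chromosome 2, 135791057 to 135911837), a fibril-associated collagen, had 17.6 CPM in EN1-positive cells and 305 in WNT7A-positive cells, 17.3-fold lower (15.0 to 20.1). By barcode it had 12.6 to 23.7 CPM in EN1-positive cells and 281 to 356 in WNT7A-positive cells. In thinned WNT7A-positive cells, COL14A1 was seen in 69.9% of the cells with SULF1 and 47.6% of those without. CXCL14, a chemokine picked after its values were seen, was the most abundant gene named on this side, with 382 CPM in EN1-positive cells and 2202 in WNT7A-positive cells. CXCL14 was seen in 49.4% of EN1-positive and 91.7% of WNT7A-positive thinned cells, and in 0.559% of haemoglobin-rich cells. APOD, a lipid-binding apolipoprotein, had 9.16 and 172 CPM in EN1-positive and WNT7A-positive cells, and SPP1, which encodes osteopontin, 6.23 and 104 in the same groups.

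The adhesion and extracellular matrix list had 1 higher and 6 lower members of 39 (15.4% lower, against 2.05% of all genes; median log2 ratio -0.24). The lower ones were COL14A1, COL1A2, LAMA3, NID1, ITGB4 and VCAN, and COL1A1 was the higher one. NID1, a basement membrane linker, had 73.9 CPM in EN1-positive cells and 269 in WNT7A-positive cells. LAMA3 and ITGB4, which encode a laminin chain and an integrin chain that take part in anchoring epithelia to the basement membrane, had 8.89 and 1.01 CPM in EN1-positive cells, against 27.5 and 9.32 in WNT7A-positive cells. DST, which links that anchorage to the cytoskeleton and was picked after its values were seen, had 121 and 640 CPM in EN1-positive and WNT7A-positive cells. COL1A1 and COL1A2, the chains of collagen I, went opposite ways, with 78.5 and 84.5 CPM in EN1-positive cells, against 35.6 and 181 in WNT7A-positive cells. FN1, fibronectin, was just under 2-fold, at 507 CPM in EN1-positive and 997 in WNT7A-positive cells.

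Of 33 axon guidance and Eph genes, 2 were higher (6.06%, against 2.72% of all genes) and 6 lower (18.2%, against 2.05%) in EN1-positive cells, with a median log2 ratio of -0.16. The higher ones were UNC5B and UNC5C. The lower ones were the secreted semaphorins SEMA3A, SEMA3C and SEMA3D, the guidance cue SLIT3 and the receptors EPHA4 and EPHB1. SEMA3A had 129 CPM in EN1-positive cells and 459 in WNT7A-positive cells, and by barcode 68.4, 133, 109 and 150 in EN1-positive cells, against 440, 402, 555 and 483 in WNT7A-positive cells. Each EN1-positive value was below every WNT7A-positive one. EPHA4 was near the limit, at 22.1 CPM in EN1-positive and 45.5 in WNT7A-positive cells.

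LMX1B (chromosome 17, 10665426 to 10802338), known as the mesenchymal target of WNT7A in the limb, had 19.7 CPM in EN1-positive ectoderm and 93.9 in WNT7A-positive ectoderm, 4.76-fold lower (4.11 to 5.55). By barcode it had 14.1, 13.4, 17.4 and 29.2 CPM in EN1-positive cells, against 90.4, 84.8, 90.9 and 110 in WNT7A-positive cells, with no overlap. It was seen in 6.02% and 26.3% of thinned cells of those groups, and cells outside the ectoderm had 60.8 CPM. TFAP2B, the AP-2 beta transcription factor, had 86.4 CPM in EN1-positive cells and 408 in WNT7A-positive cells, and 22.2 outside the ectoderm. Within thinned WNT7A-positive cells, LMX1B was seen in 28.6% of those with TFAP2B and 18.9% of those without.

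Other transcription factors lower in EN1-positive cells were EMX1 and EMX2, homeodomain factors best known from the forebrain, with 9.25 and 3.94 CPM in EN1-positive cells, against 124 and 27.9 in WNT7A-positive cells. NR2F2, an orphan nuclear receptor, had 112 CPM in EN1-positive cells and 345 in WNT7A-positive cells, and by barcode 76.0 to 124 in EN1-positive cells against 280 to 394 in WNT7A-positive cells. GAS1, a hedgehog co-receptor, had 42.7 and 158 CPM in EN1-positive and WNT7A-positive cells, and HEY2, a Notch target, 20.0 and 58.0 in the same groups. With HES5 as the higher gene, these were the 3 members past 2-fold of 25 Notch, hedgehog and retinoic acid genes. That is 4% higher, against 2.72% of all genes, and 8% lower, against 2.05%. SOST, the secreted WNT and BMP antagonist sclerostin, was picked after its values were seen and had 12.2 and 97.9 CPM in EN1-positive and WNT7A-positive cells.

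**Figure D4:**
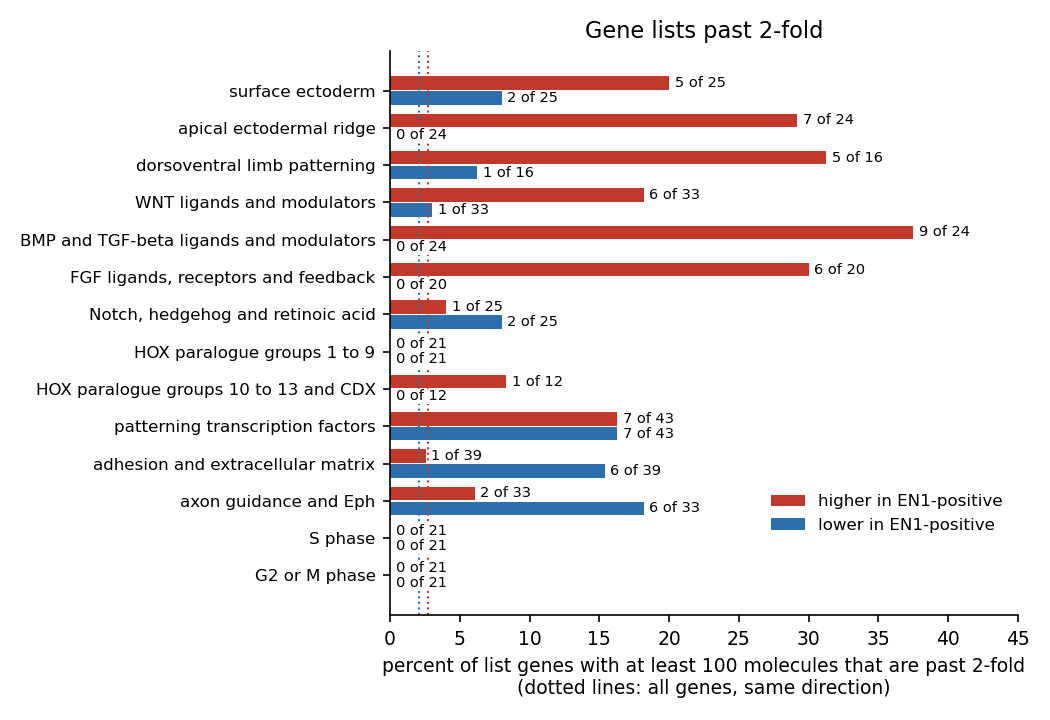
Percent of the genes of each list that were past 2-fold (x axis), higher in EN1-positive cells (red, upper bar) or lower (blue, lower bar), with the counts out of members at 100 molecules beside each bar. Dotted lines give 2.72% and 2.05%, the shares of all genes in those directions. The BMP and TGF-beta list has 9 higher genes of 24, and the axon guidance and Eph list 6 lower genes of 33.

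Cell cycle genes, like most genes, were within 2-fold. None of 21 S phase genes and none of 21 G2 or M phase genes was past it. That is near the 4.77% of all genes past 2-fold either way. Their median log2 ratios were -0.29 and 0.09. PCNA, the replication clamp, had 624 CPM in EN1-positive cells and 778 in WNT7A-positive cells, and TOP2A, topoisomerase II alpha, 567 and 533 in the same groups.

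Genes with an identifier and no symbol in the table were set apart, and 4 of them were picked after their values were seen. ENSGALG00010021899 had 426 CPM in EN1-positive cells and 1.21 in WNT7A-positive cells, a ratio of 351 (205 to 660) from 4645 molecules in EN1-positive and 13 in WNT7A-positive cells, the largest of any gene past 2-fold. By barcode it had 372, 404, 613 and 352 CPM in EN1-positive cells, against 0.91, 1.59, 0.94 and 0.97 in WNT7A-positive cells. Cells with both EN1 and WNT7A had 64.8 CPM, cells with neither 2.49, and cells outside the ectoderm 4.27, where EN1 itself had 149, 0 and 10.0. It was seen in 65.7% of EN1-positive and 0.962% of WNT7A-positive thinned cells. ENSGALG00010022147 had 47.8 and 0.56 CPM in EN1-positive and WNT7A-positive cells. On the other side, ENSGALG00010004980 and ENSGALG00010020695 had 2.84 and 3.21 CPM in EN1-positive cells, against 50.4 and 40.1 in WNT7A-positive cells. Their positions and products were not given in the sources used here, so whether any overlaps EN1 or WNT7A was not examined.

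The ectoderm cells with neither gene were set beside both groups. For 190 of the 250 higher genes and 138 of the 188 lower genes their level lay between those of the groups. On a log scale it was nearer the WNT7A-positive level for 143 of the higher genes. Of the lower genes it was nearer the EN1-positive level for 77 and nearer the WNT7A-positive level for 111. HAND1, GATA2 and KITLG were nearer their WNT7A-positive than their EN1-positive level in cells with neither gene, at 31.4, 102 and 21.3 CPM. GATA2 was still well above its WNT7A-positive level of 52.5 CPM there. HOXA13 and CD44 were near their EN1-positive level there, at 280 and 85.9 CPM, and LMX1B, APOD and SPP1 near their WNT7A-positive level, at 91.8, 151 and 102 CPM. Cells with both EN1 and WNT7A lay between the groups for 215 of the 250 and 174 of the 188. These genes were chosen because the groups differed by 2-fold or more, so other cells can lie between them through that choice alone. The share over all genes was not counted, for cells with both or with neither.

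**Figure D5:**
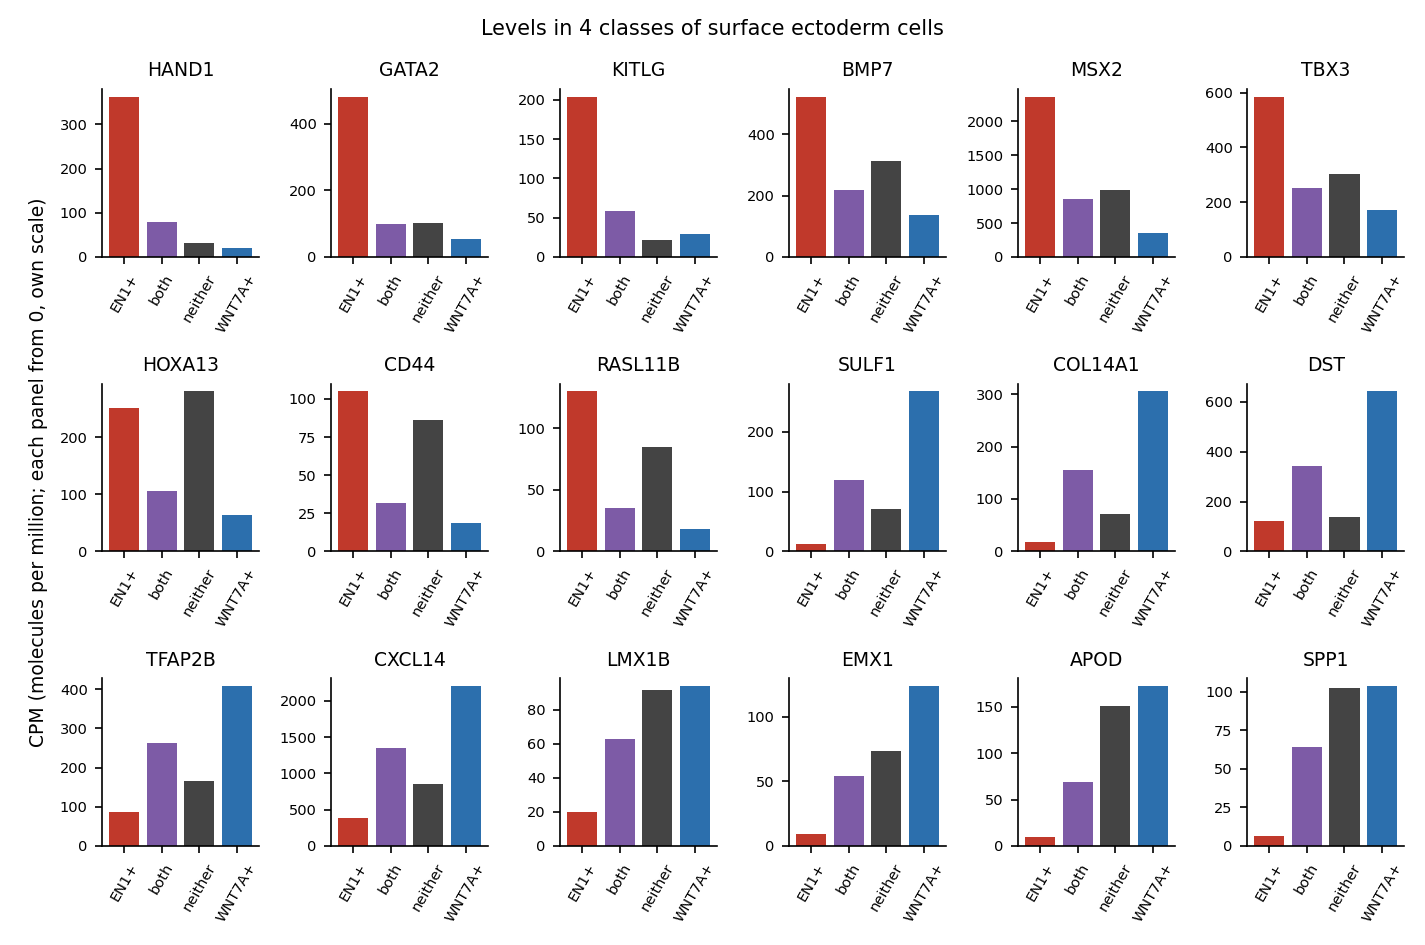
CPM of 18 genes in EN1-positive cells, cells with both genes, cells with neither and WNT7A-positive cells, each panel on its own scale from 0. HAND1 has 362 CPM in EN1-positive cells and 31.4 in cells with neither, while HOXA13 has 250 and 280 and SPP1 6.23 and 102.

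The cells with neither gene had higher levels than either group of several genes of the tail end, but not of these alone. HOX genes of paralogue groups 1 to 9 summed to 3925 CPM there, against 2138 in EN1-positive and 2229 in WNT7A-positive cells. Hindgut markers summed to 63.8 CPM there, against 25.1 and 15.9 in the same groups. The list of HOX groups 10 to 13 and CDX summed to 1999 CPM there, against 854 in EN1-positive and 530 in WNT7A-positive cells. Sums of some other lists, such as that of BMP and TGF-beta, lay between the groups, and others did not. Patterning factors summed to 5378 CPM in cells with neither gene, below 8102 and 5482 in the same groups. Notch, hedgehog and retinoic acid genes summed to 3065, above 2422 and 2622. The surface ectoderm list summed to 4170 CPM in cells with neither gene, below 5063 in EN1-positive and 4365 in WNT7A-positive cells. TP63 and EPCAM, which chose the cells, were at 177 and 506 CPM in cells with neither gene. They were at 209 and 637 CPM in EN1-positive cells and 249 and 612 in WNT7A-positive cells. HOXC10 had 135 CPM in EN1-positive cells and 119 in WNT7A-positive cells, and 476 in cells with neither. WNT5A, a ligand of posterior outgrowth, had 350 and 250 CPM in those groups and 717 in cells with neither. TBXT, the mesodermal T-box factor brachyury, had 37.8 and 24.98 CPM in EN1-positive and WNT7A-positive cells, and 163 in cells with neither. Between EN1-positive and WNT7A-positive cells its log2 ratio of 0.60 was -0.0098 without the cells of SBC3.

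Markers of other cell types were summed in both groups. Splanchnic or lateral plate mesoderm markers summed to 581 CPM in EN1-positive cells and 111 in WNT7A-positive cells. Of the 5 at 100 molecules, 3 were higher (60%, against 2.72% of all genes), HAND1, NKX2-5 and ISL1. HAND1 made up most of that sum, and the markers FOXF1, GATA4, GATA6, BARX1 and NKX2-3 did not reach 100 molecules in either group. Limb bud mesenchyme markers summed to 606 and 1064 CPM in EN1-positive and WNT7A-positive cells. TFAP2B was lower (14.3%, against 2.05% of all genes) and the other 6 of 7 were within 2-fold. PRRX1, the defining mesenchymal factor of that list, had 102 CPM in EN1-positive and 86.5 in WNT7A-positive cells, against 504 outside the ectoderm, and without the cells of SBC3 its log2 ratio was 1.07 in place of 0.24. Neural crest markers summed to 513 and 705 CPM in EN1-positive and WNT7A-positive cells. TFAP2B is on that list too, as the 1 lower gene of 4 (25%, against 2.05% of all genes). ETS1, PAX7 and SOX9 were within 2-fold. TFAP2B differed by more CPM than the neural crest sums, so the rest of that list summed higher in EN1-positive cells. It also made up most of the difference between the limb bud sums. Intermediate mesoderm markers summed to 68.1 and 121, dermomyotome or myotome to 132 and 171, and endothelium to 91.6 and 104 CPM in EN1-positive and WNT7A-positive cells. Neural tube markers summed to 59.0 and 30.6, neuromesodermal and notochord markers to 90.5 and 66.1, hindgut markers to 25.1 and 15.9, and macrophage markers to 18.1 and 35.3 CPM in the same groups. Their part in the differences between the groups was not tested.

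Haemoglobin genes were higher in EN1-positive cells, with erythroid markers at 492 CPM against 78.2 in WNT7A-positive cells. A single EN1-positive cell carried most of that, and without it the log2 ratio of HBBA was 0.25 in place of 2.90 and that of HBZ 0.09 in place of 2.49. W-linked genes differed too, and the W chromosome is carried by females only in birds. HINTW had 23.2 CPM in EN1-positive cells and 7.36 in WNT7A-positive cells, and ATP5A1W 37.2 and 9.79 in the same groups. By barcode HINTW had 127, 11.4, 0.46 and 23.6 CPM in EN1-positive cells, against 43.8, 1.82, 3.75 and 4.84 in WNT7A-positive cells, so SBC7 had the opposite order. The part of the mix of female and male cells in other differences was not tested.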

How the data were processed

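The authors deposited molecule counts for every gene in every cell. They came from version 1.11 of the BD Rhapsody pipeline run on GRCg7b with Ensembl release 107, introns included, and with the cell number set to 60000, per the file headers. The table holds 28190 gene columns, 15073 of them with an identifier only, and 6 lipid barcode columns, of which SBC2, SBC3 and SBC7 were used. The submitters' processing notes name R 3.6.2 and Seurat.

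From these counts, molecules were summed per group and divided by the group's gene molecules, per 1000000 (CPM). A cell was assigned to a barcode with at least 10 of its molecules and 3 times those of every other. Ratios have exact conditional intervals, sums exact Poisson and shares exact binomial (Clopper-Pearson) intervals at 95%. With PCR and pooling, these cover counting error only. For a ratio, a group with under 3 molecules of a gene was set to 3 molecules over the group. Cells were thinned to 4000 molecules for shares, which left out 0 cells. No doublet caller was run. As alternatives, the deepest 10% of cells, or cells with 2 or more lipid barcodes, were left out. A barcode counted there above 5 times its median in cells with at least 10 of its molecules. That left 329 EN1-positive and 304 WNT7A-positive cells. As 2 cells of 1 tissue carry the same barcode, that step cannot find them, and neither alternative replaces a doublet caller. The calculation was tested on simulated counts. Scripts ran in Python 3.11.15 with pandas 2.3.3, scipy 1.17.1 and numpy 2.4.6, and gene positions come from the RefSeq gene table of GRCg7b.

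The genes named were the 12 with the largest ratio each way among genes with a symbol and at most 20% of molecules in 1 cell, list members past 2-fold under the same conditions, and the 2 members of each list with the most molecules. Some genes that this rule takes are not reported here. Others were picked after their values were seen, though not each is marked so where it is named. Co-detection pairs and the genes of the class plot were picked so too. The groups, lists and thresholds were chosen with earlier results of these data known.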

Additional observations from a re-analysis of the deposited data

How the results depend on the processing

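Against 250 genes higher and 188 lower in EN1-positive cells, 14 of 19 alternatives left both counts within 1.5 times, from 207 to 292 higher and from 141 to 217 lower. The other 5 moved both. They were cells thinned to 4000 molecules (64 higher and 37 lower, of 2296 genes at 100 molecules, from 301 EN1-positive and 257 WNT7A-positive cells), a minimum of 20 molecules (547 and 441), a minimum of 500 molecules (92 and 64), a ratio of 1.5-fold (523 and 442), and at most 10% mitochondrial molecules (66 and 46, from 46 EN1-positive and 39 WNT7A-positive cells). Of 110 named genes past 2-fold, the 10% mitochondrial limit left 87 at 2-fold or more in the same direction, and each other alternative that was counted so left 104 or more. Among those that ended under 2-fold at that limit, the log2 ratio was 0.68 for FGF7 in place of 2.99, 0.40 for TBX2 in place of 1.51, 0.57 for KRT18 in place of 1.30, 0.06 for WNT9A in place of 1.25, 0.47 for COL1A1 in place of 1.14, 0.82 for ATP5A1W in place of 1.93, -0.71 for NR2F2 and -0.76 for LAMA3 in place of -1.63 each, and -0.19 for EPHB1 in place of -1.17. SMAD6, SMAD7, SPRY2, ETV1 and SLIT3 ended at 0.74, 0.91, 0.87, 0.68 and -0.83. Some genes stayed past 2-fold at that limit with much smaller ratios. HGF had a log2 ratio of 1.47 in place of 3.49, and GDF6 1.48 in place of 3.66. NKX2-5 had 2.38 in place of 5.51, and SPP1 -1.86 in place of -4.06. NKX2-5 and GDF6 had only 3 and 8 molecules in all WNT7A-positive cells, and counts under 3 were set to 3. The smaller ratio of NKX2-5 was thus bounded by that floor, and that of GDF6 rests on few molecules at that limit. Other ratios grew in size there, with 3.76 for FGF9 in place of 2.50, 4.52 for GDF3 in place of 2.80 and -3.67 for GATA3 in place of -2.04. In thinned cells IRX2 had -0.66 in place of -1.74, and FGF8 0.34 in place of 1.04. Of the named genes past 2-fold, 2 had the opposite sign under an alternative. EPHA4 had a log2 ratio of 0.0104 at the 10% mitochondrial limit, and FGF8 had -0.40 without the cells with FGF8 at 0.5 per 10000 or more. That last alternative leaves out cells by their FGF8 level, so its FGF8 value is set by the filter and tells nothing of direction. The cause for EPHA4 was not tested. Of the genes within 2-fold, PRRX1 had -0.36 at the 10% mitochondrial limit in place of 0.24, TBXT had -0.19 there and -0.41 in thinned cells in place of 0.60, and HOXC10 had -0.27 without the cells of no barcode in place of 0.18. TOP2A, WNT3A, WNT6 and GATA6 also changed sign under 1 alternative each. BMP4, HOXA11 and FN1, just under 2-fold, were past it under some alternatives. Without the cells of SBC3, EDNRB, which is not described above, had a log2 ratio of 2.08 in place of 2.94. The alternative without the haemoglobin-rich cell was added after the data were seen. No paired analysis was possible because the labels give 1 pooled sample and tie no lipid barcode to an embryo or treatment, so barcodes were not taken as replicates and their values are given side by side. Depth limits genes of few molecules, such as NKX2-5, whose ratio of 45.6 has an interval of 15.3 to 224.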
